A study of Mus musculus with 6 samples.

Results

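The genes of cohesin, the protein ring that holds sister chromatids together, were read in RNA sequencing of cultured fetal mouse ovaries. The set holds 9 subunit genes of 21898 genes in the count table, found by their symbols, and all 9 passed the filter on low counts. The meiotic subunits are Rec8, Rad21l, Stag3 and Smc1b (4 genes), and Rad21, Stag1, Stag2, Smc1a and Smc3 (5 genes) belong to mitotic cohesin. Smc3 is also a part of meiotic cohesin and has no meiotic paralog.

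Ovaries of WT fetuses were taken at 14.5 days post coitum and cultured without serum for 3 days. The control group, 3 libraries, received ethyl acetate, the solvent. The NAPQI group, 3 libraries, received 15 µM N-acetyl-p-benzoquinone imine (NAPQI), a reactive metabolite of acetaminophen that binds protein thiols. Both groups were whole cultured ovaries, so each library mixes germ cells with somatic cells. The sources used here do not say whether libraries of a group stem from different litters or culture wells. The p-values therefore reflect library-to-library spread, which could be technical.

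Cohesin rings consist of an SMC1 and an SMC3 protein, closed by a kleisin, to which a STAG protein binds. RAD21 is the kleisin of dividing cells, and germ cells in meiosis also use REC8 and RAD21L. STAG1 and STAG2 are largely replaced there by STAG3, and SMC1A in part by SMC1B. In mouse oocytes these meiotic rings build the chromosome axes on which homologs pair, and REC8-containing cohesin is known to keep sister chromatids together through the long arrest of the oocyte.

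Depth was 13879347 to 17258609 counts per library. Germ cells and their somatic partners were both present in every group: the germ cell gene Ddx4, a helicase, averaged 164 ± 21.4 CPM for controls and 174 ± 18.6 CPM for NAPQI (counts per 1e+06 counted reads on TMM-scaled library sizes; mean ± SD, n = 3). Foxl2, the transcription factor of pregranulosa cells, stood at 368 ± 36.2 and 329 ± 27.9 CPM. Control replicate 3 stood apart from the other libraries, at -39.6 on the first principal component against -14.4 to 27.8 for the rest. It also had the lowest depth, the highest summed red blood cell markers (197 CPM against 18.2 to 62.9 CPM) and the strongest trend with gene length. The Spearman correlation across genes between length and deviation from the mean log2 CPM was -0.3 there, against -0.1 to 0.164 in the others; genes are not independent replicates.

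RefSeq promoters, 250 bases before to 50 after the start of a gene, were held for 7 of the 9 subunits; Rad21 and Stag2 had no entry. Those of the 4 meiotic genes are shown because these genes share a germline pattern of expression. Their log2 fold changes, NAPQI over control, ran from -0.51 to 0.18, and none passed adjustment over all genes. Sequences are 5′ to 3′ on the strand of the gene, in GRCm38.p6. Rec8 is at chr14:55617916-55618215 on the plus strand, Stag3 at chr5:138280259-138280558 on the plus strand, Smc1b at chr15:85131908-85132207 on the minus strand and Rad21l at chr2:151668484-151668783 on the minus strand. Capitals mark TCCCGC, the core of the E2F-type motif, and CACGTG, the E-box.
Rec8: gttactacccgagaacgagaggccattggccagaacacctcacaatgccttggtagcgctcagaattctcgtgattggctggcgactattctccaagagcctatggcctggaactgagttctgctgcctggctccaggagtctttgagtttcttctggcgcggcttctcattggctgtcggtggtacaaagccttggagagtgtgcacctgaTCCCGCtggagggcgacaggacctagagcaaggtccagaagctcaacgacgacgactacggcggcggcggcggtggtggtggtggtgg
Stag3: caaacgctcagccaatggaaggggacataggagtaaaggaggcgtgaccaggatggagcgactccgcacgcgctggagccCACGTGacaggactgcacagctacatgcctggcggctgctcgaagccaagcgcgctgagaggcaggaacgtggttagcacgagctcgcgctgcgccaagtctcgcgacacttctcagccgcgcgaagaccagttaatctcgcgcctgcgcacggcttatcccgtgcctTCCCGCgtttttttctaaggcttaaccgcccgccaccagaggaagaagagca
Smc1b: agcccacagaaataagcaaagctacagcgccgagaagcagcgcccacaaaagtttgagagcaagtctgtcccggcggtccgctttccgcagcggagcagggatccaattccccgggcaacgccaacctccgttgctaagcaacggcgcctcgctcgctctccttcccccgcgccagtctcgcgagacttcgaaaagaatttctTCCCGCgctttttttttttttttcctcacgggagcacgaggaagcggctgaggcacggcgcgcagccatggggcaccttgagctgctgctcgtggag
Rad21l: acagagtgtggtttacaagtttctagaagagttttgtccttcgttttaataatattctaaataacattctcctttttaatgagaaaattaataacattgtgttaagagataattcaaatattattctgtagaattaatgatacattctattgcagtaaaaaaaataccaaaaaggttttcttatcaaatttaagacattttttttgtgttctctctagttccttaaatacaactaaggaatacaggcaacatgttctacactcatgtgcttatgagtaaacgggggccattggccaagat

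Both motifs, with TTCCCGC, CNCCTCAG and ATTGG, were searched on both strands. The core TCCCGC lay at -38 in Rec8, -2 in Stag3 and -47 in Smc1b, counted from the start of the gene. It was also in the 3 mitotic promoters held, at -15 in Stag1, 40 in Smc1a and -116 and 30 in Smc3, and 20% of 32851 promoters of this length hold it. The longer TTCCCGC, which contains the core, was in Stag3 and Smc1b and in the mitotic Stag1 and Smc1a, and 4.6% of promoters hold it. E2F6, a repressor of the E2F family, is known to silence Stag3 and Smc1b in mouse somatic cells. The E-box was in Stag3 alone of the 7, and 7.15% of promoters hold it. CNCCTCAG, the motif described for the meiotic regulator STRA8, was in 0 of the 7 windows and in 7.94% of promoters. ATTGG, the reverse of the CCAAT box, was at 3 places in Rec8 and at 1 in each of Stag3, Smc1b, Rad21l, Stag1 and Smc1a, and 37.4% of promoters hold it. The Rad21l window had 29% G and C against 58.3% to 73.7% in the other 6. Its last 50 bases, from the start of the entry, open with atg. That start may thus be the start of the coding sequence, and the window may miss the promoter. The composition and motifs of the Rad21l window are therefore not read as traits of its promoter. The shares over all promoters were not matched for content of G and C, which was 58.3% to 73.7% in the 6 windows with the core. The motifs were chosen with the sequences in view, and a match or its absence in these windows says nothing of binding.

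The first question was at what level each subunit was transcribed. Levels between genes are given as FPKM, fragments per kilobase of the length in the deposited table and per 1e+06 counted reads. In controls Smc1b was highest, at 68.4 ± 8.72 FPKM, above Rad21 at 41.3 ± 4.50 FPKM. Stag3 at 33.8 ± 0.963, Smc3 at 31.98 ± 3.29 and Smc1a at 28.1 ± 2.18 FPKM followed, and each overlapped its neighbour in this order between libraries. Stag2, at 22.1 ± 1.25 FPKM, lay apart from both neighbours. Lowest were Rad21l at 11.8 ± 2.87, Stag1 at 8.999 ± 0.966 and Rec8 at 7.89 ± 1.28 FPKM, again overlapping from each to the next. The order of the means was the same with NAPQI. There Smc3 and Smc1a no longer overlapped, nor did Stag1 and Rec8, with Stag1 at 9.41 ± 0.343 and Rec8 at 5.64 ± 0.486 FPKM.

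**Figure D1:**
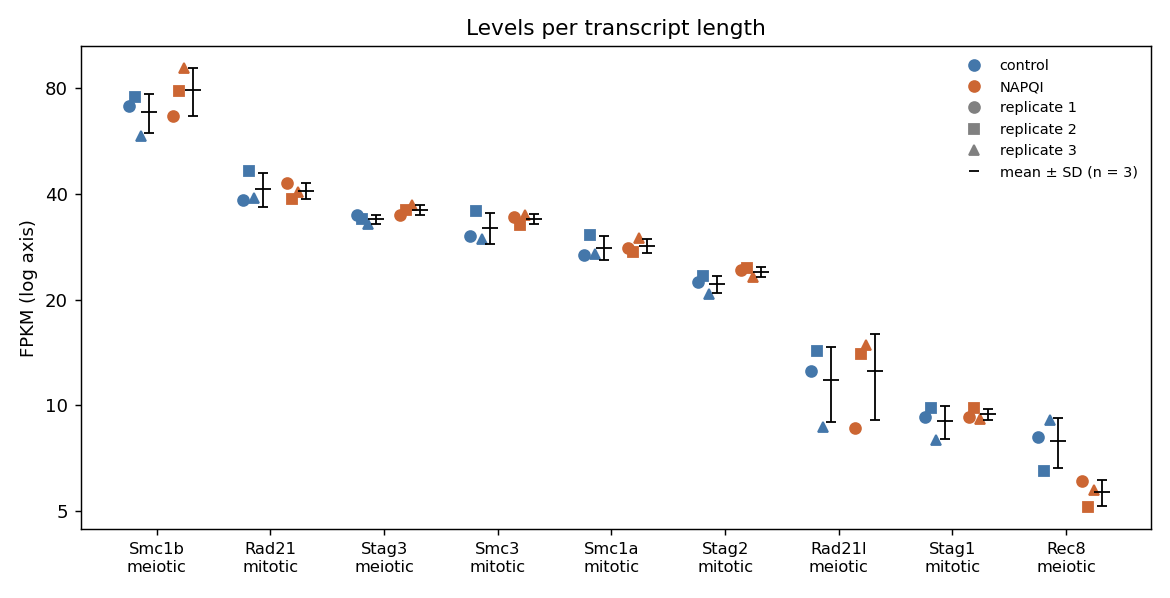
FPKM of the 9 subunits on a log axis, in the order of their control means, with 3 control and 3 NAPQI libraries as points (shape for the replicate number) and mean ± SD as bars. Smc1b is highest, with control values of 58.5 to 75.2 FPKM, and Rec8 is lowest, with NAPQI values of 5.12 to 6.07 FPKM.

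Within each family of paralogs the meiotic part differed. Of the summed FPKM of the SMC1 pair, Smc1b made up 70.8% ± 2.13 in controls and 73.3% ± 2.55 with NAPQI. Of the STAG family, Stag3 made up 52.1% ± 1.43 and 51.8% ± 1.504, Stag2 34.1% ± 0.599 and 34.6% ± 1.20, and Stag1 13.8% ± 0.902 and 13.6% ± 0.392. Among kleisins the mitotic Rad21 made up most, at 67.6% ± 2.22 and 69.2% ± 4.63. Rad21l made up 19.2% ± 3.43 and 21.2% ± 5.43. Rec8 made up 13.1% ± 3.19 in controls and 9.59% ± 0.853 with NAPQI. The libraries of both groups overlapped for each of these 8 shares. Somatic cells of the ovary also express the mitotic genes, so these are shares of the whole ovary and not of oocytes.

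The main question was which subunits differed between ovaries cultured with NAPQI and with solvent. None of the 9 passed edgeR's quasi-likelihood test with adjustment over all genes, in which 12 of 14736 tested genes passed, or 0.0814%. The tests of DESeq2 and limma-voom and the exact test of edgeR also called 0 of the 9. At an unadjusted p under 0.05 there was 1, Rec8, or 1 of 9 where 9.24% of all tested genes had such a p. Rec8 was also the single subunit whose groups did not overlap, with NAPQI lower, as for 7.13% of tested genes; 0 of 9 lay higher without overlap, as for 7.26%.

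Rec8 encodes the meiotic kleisin that separase cuts in the meiotic divisions. It lies on chromosome 14 from 55855494 to 55862852 on the plus strand (GRCm39, as in the deposited table; ENSMUSG00000002324). It stood at 23.8, 19.2 and 27.3 CPM in control replicates 1, 2 and 3 and at 17.8, 14.9 and 16.6 CPM in NAPQI replicates 1, 2 and 3. The highest NAPQI library, replicate 1, lay just below the lowest control, replicate 2. The log2 fold change was -0.51 ± 0.16 (SE; edgeR adjusted p = 0.364), a level 0.702 of control with a 95% interval of 0.555 to 0.889 before adjustment for the number of genes. Its rank by p was 262 of the tested genes, and 92.45% of them had a smaller absolute log2 fold change.

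The counts behind Rec8 were 235 to 407 per library, for which counting error alone is 4.96% to 6.52%. The SD between libraries was 17.2% of the mean in controls and 8.87% with NAPQI. The value rested in part on single controls. Without control replicate 3, its highest library, the log2 fold change was -0.39 (edgeR unadjusted p = 0.0348, adjusted p = 0.9997). The adjusted p was 0.9997 for each of the 9 subunits in that run. Without control replicate 2, its lowest control, the log2 fold change of Rec8 was -0.63 (edgeR adjusted p = 0.0957). These adjusted p of Rec8 are the ends of their range over 16 alternatives, which reuse the same libraries. The unadjusted p of Rec8 was under 0.05 in all 16 of them. Rec8 is short, at 2935 nucleotides against a median of 4436 over tested genes, and in control replicate 3 short genes stood higher. With each library's length trend removed the log2 fold change of Rec8 was -0.46 (edgeR adjusted p = 0.407). By its deposited length Rad21l is shorter still, at 1659 nucleotides, and control replicate 3 was its lowest control, at 14.7 CPM. Whether that length, also used for the FPKM of Rad21l, covers the whole transcript was not checked. The part of length in the Rec8 value of control replicate 3 was not tested. The authors' deposited table gave Rec8 a ratio of 0.703 with an adjusted p of 0.559, and an adjusted p of 1 for the other 8 subunits.

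**Figure D2:**
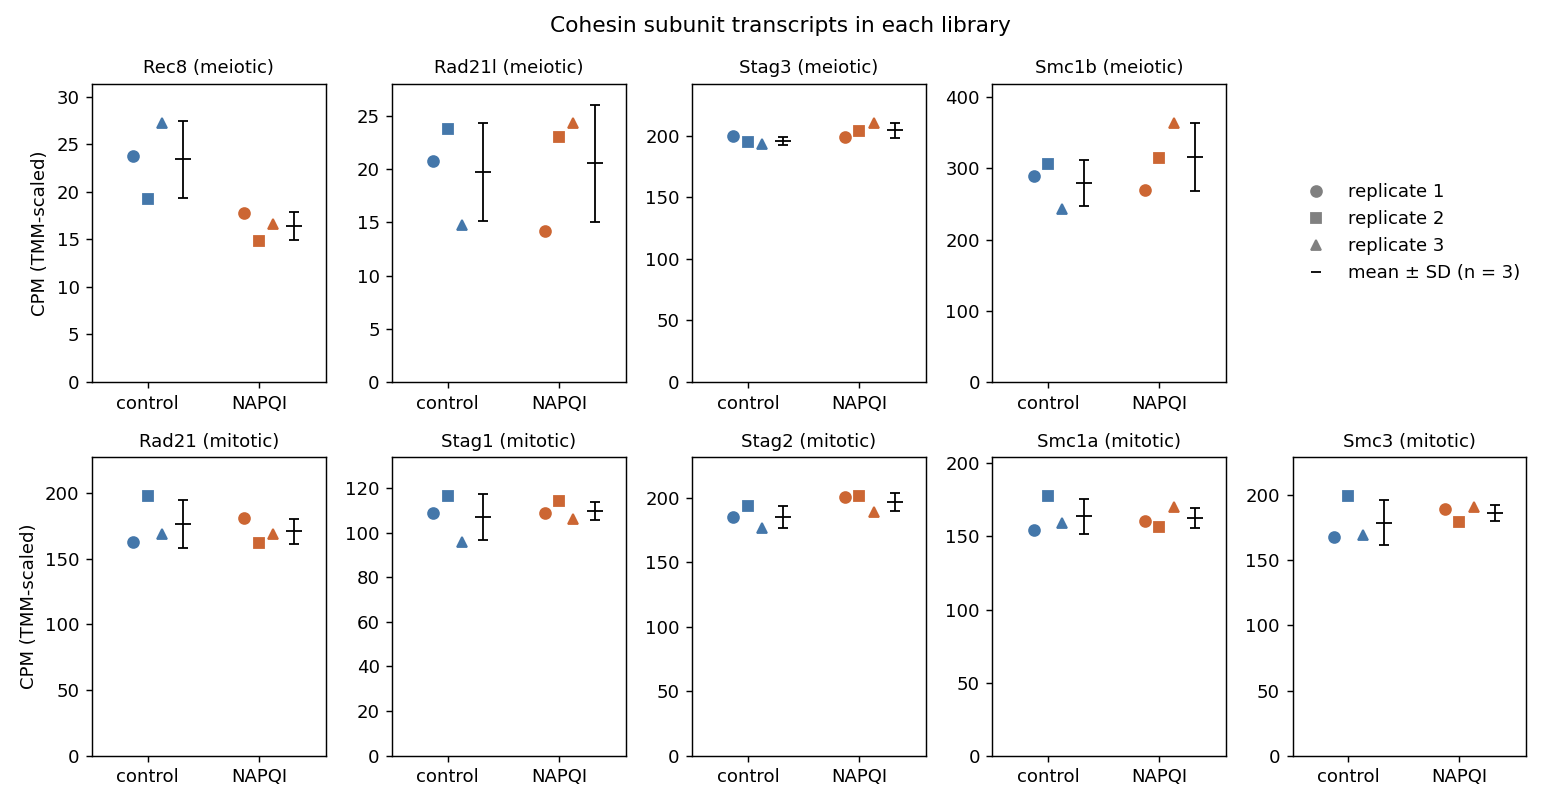
CPM of each subunit per library on axes from 0, meiotic genes above and mitotic genes below, with mean ± SD (n = 3) beside the points and a shape for each replicate number. For Rec8 the NAPQI libraries at 14.9 to 17.8 CPM lie below the controls at 19.2 to 27.3 CPM; for the other 8 genes the groups overlap.

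Rad21l, the other meiotic kleisin, found on homolog axes early in prophase, lies on chromosome 2 (151487324 to 151510453, minus strand). It stood at 20.8, 23.8 and 14.7 CPM in controls and at 14.2, 23.0 and 24.4 CPM with NAPQI. Each group thus held 1 low library, control replicate 3 and NAPQI replicate 1, and the groups overlapped. The log2 fold change was 0.05 ± 0.21 (edgeR adjusted p = 0.96), and the 95% interval of the fold, 0.75 to 1.43, was the widest of the 9. Its counts of 199 to 408 were low, like those of Rec8, but the SD between libraries, 23.4% and 26.9% of the mean, was well above the counting error of up to 7.09%. The sign turned to -0.12 when control replicate 3 was left out, to -0.03 for NAPQI replicate 2 and to -0.09 for NAPQI replicate 3.

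Smc1b, the meiotic SMC1 protein on chromosome 15 (84948890 to 85016165, minus strand), stood at 289, 306 and 243 CPM in controls and at 269, 315 and 365 CPM with NAPQI. NAPQI replicates 2 and 3 lay above all controls and NAPQI replicate 1 lay within their range. The log2 fold change was 0.18 ± 0.12 (edgeR adjusted p = 0.663), and the interval of the fold was 0.942 to 1.36. Without NAPQI replicate 1 it was 0.29 (edgeR adjusted p = 0.54, and 0.386 to 1.00 over the alternatives). It was 0.07 without NAPQI replicate 3 and 0.09 without control replicate 3.

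Stag3, the meiotic STAG protein on chromosome 5 (138278502 to 138310655, plus strand), varied least. It stood at 200, 195 and 193 CPM in controls and at 199, 204 and 211 CPM with NAPQI, and its SD was 1.69% and 2.95% of the mean, against a counting error of 1.71% to 1.96%. NAPQI replicates 2 and 3 lay above all controls, and NAPQI replicate 1 lay below control replicate 1. The log2 fold change was 0.06 ± 0.08 (edgeR adjusted p = 0.846), with a fold between 0.92 and 1.18.

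The mitotic kleisin Rad21, which also shapes chromatin loops in interphase, stood at 163, 198 and 169 CPM in controls and at 181, 162 and 169 CPM with NAPQI (log2 fold change -0.05 ± 0.10, edgeR adjusted p = 0.908). Control replicate 2 was its highest library, and the NAPQI libraries spanned the rest. Smc1a, the mitotic SMC1 protein, stood at 154, 178 and 159 CPM in controls and at 161, 156 and 170 CPM with NAPQI (-0.01 ± 0.09, edgeR adjusted p = 0.977). Smc3, the partner of either SMC1, stood at 168, 199 and 170 CPM in controls and at 189, 179 and 191 CPM with NAPQI (0.06 ± 0.09, edgeR adjusted p = 0.876). For all 3 genes control replicate 2 was the highest of the 6 libraries.

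Stag2, the more abundant mitotic STAG gene, stood at 185, 193 and 176 CPM in controls and at 201, 201 and 189 CPM with NAPQI (0.09 ± 0.09, edgeR adjusted p = 0.773). NAPQI replicate 3 lay below control replicate 2, so the groups overlapped. Stag1, its paralog, stood at 109, 116 and 95.9 CPM in controls and at 109, 114 and 106 CPM with NAPQI (0.04 ± 0.09, edgeR adjusted p = 0.924). Over the 5 mitotic genes the 95% intervals of the fold lay between 0.835 and 1.21. In deposited coordinates Rad21 lies on chromosome 15 (51825636 to 51855143), Smc3 on 19 (53588829 to 53634264), Stag1 on 9 (100479851 to 100841428), and Stag2 (41238194 to 41366062) and Smc1a (150799424 to 150845690) on X. No other gene of the count table overlaps the span of any of the 9.

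**Figure D3:**
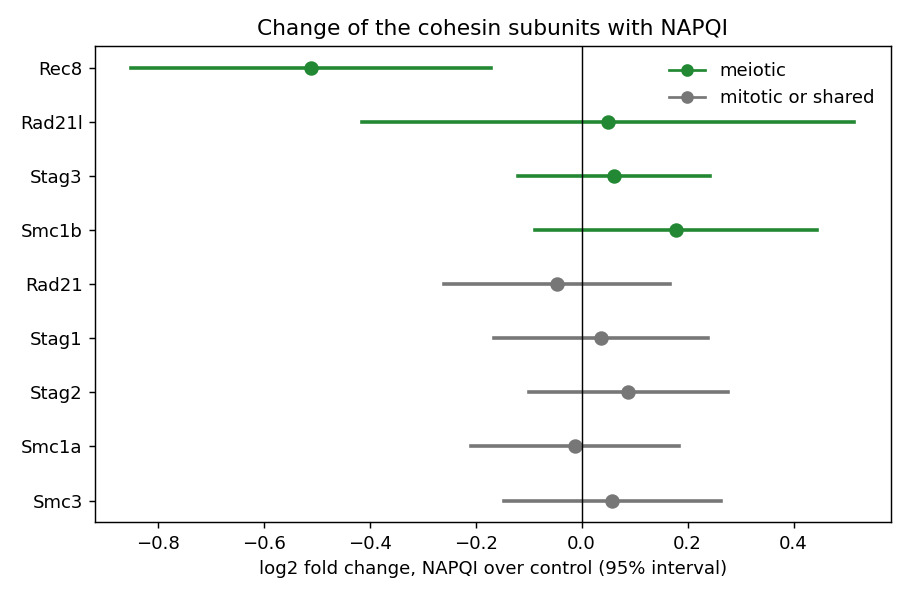
Log2 fold change, NAPQI over control, of the 9 subunits, with 95% intervals of the edgeR fit before adjustment for the number of genes. The interval of Rec8, -0.85 to -0.17, does not hold 0; those of the other 3 meiotic and the 5 mitotic genes do.

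The libraries did not order the subunits alike. Control replicate 3 was below the mean log2 CPM of the 6 libraries for 8 of the 9 genes and was the highest library for Rec8. Control replicate 2 was above that mean for all 5 mitotic genes, and control replicate 3 was below it for all 5. Among the meiotic genes NAPQI replicate 1 was below the mean for all 4 and NAPQI replicates 2 and 3 above it for 3, all but Rec8.

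The next comparison set meiotic against mitotic genes. The median log2 fold change was 0.06 for the 4 meiotic and 0.04 for the 5 mitotic genes, beside -0.01 for all tested genes, and the difference of 0.02 was below the SD between libraries of 0.16. That difference was 0.13 without NAPQI replicate 1, -0.07 without NAPQI replicate 3 and 0.10 after removal of the length trend, so its sign was not fixed. Within a library the ratio of a meiotic gene to its paralog does not depend on scaling. The log2 ratio of Rec8 to Rad21 CPM was -2.77, -3.36 and -2.63 in controls and -3.35, -3.44 and -3.34 with NAPQI. Control replicate 2 thus lay among the NAPQI libraries, and the other 2 controls lay above them. The group means differed by -0.46, or 0.728 of control, a difference not tested since the genes were chosen with earlier results known. It was -0.68 without control replicate 2 and -0.31 without control replicate 3.

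The other ratios differed less between groups. The log2 ratio of Smc1b to Smc1a was 0.77 ± 0.15 in controls and 0.95 ± 0.19 with NAPQI. That of Rad21l to Rad21 was -3.18 ± 0.30 and -3.09 ± 0.50. The ratios of Stag3 differed least of the 5 between groups: the log2 ratio was 0.88 ± 0.13 and 0.89 ± 0.08 to Stag1, and 0.08 ± 0.06 and 0.05 ± 0.09 to Stag2. The libraries of both groups overlapped in all 5 ratios.

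**Figure D4:**
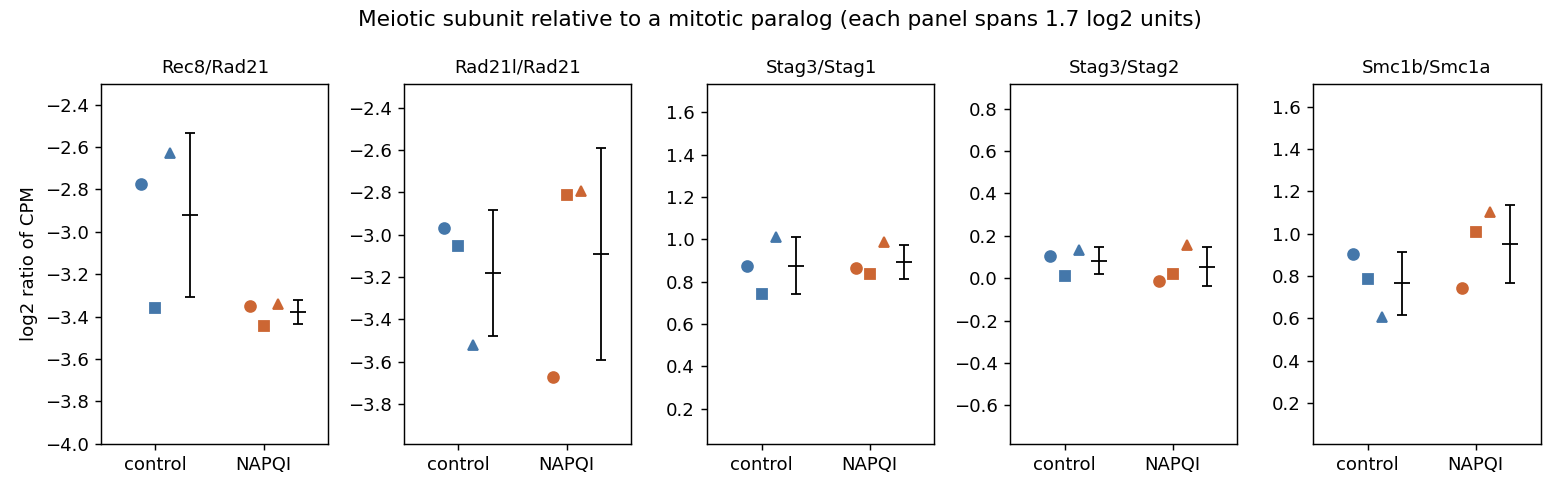
Log2 ratio of the CPM of a meiotic subunit to a mitotic paralog in each library, with mean ± SD (n = 3); each panel spans the same height in log2 units. For Rec8 over Rad21 control replicate 2, at -3.36, lies among the NAPQI libraries; the groups overlap in all 5 panels.

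In RNA of whole ovaries, fewer germ cells and less RNA per germ cell cannot be told apart, so the meiotic genes were also set beside germ cell markers. The summed level of 10 germ cell markers was 1093 to 1240 CPM in controls and 1074 to 1354 CPM with NAPQI, and none of the 10 was at 0 in all libraries. Their median log2 fold change was -0.03 over the 9 tested. The log2 ratio of Rec8 to this sum was -5.66 ± 0.31 in controls and -6.22 ± 0.27 with NAPQI, a difference of -0.56, and control replicate 2 at -6.01 lay below NAPQI replicate 1 at -5.92. For Rad21l, Stag3 and Smc1b the differences were -0.02, -0.002 and 0.11. Markers of other cell types were summed as well. The 6 stromal markers summed to 3557 to 4014 CPM in controls and 2560 to 3658 CPM with NAPQI. Of their log2 fold changes 6 of 6 were negative and 4 of 6 had an unadjusted p under 0.05. The 7 macrophage markers summed to 84.9 to 119 and 74.5 to 90.2 CPM, with 7 of 7 negative and 2 of 7 at an unadjusted p under 0.05. Over all tested genes 7745 of 14736 were negative and 9.24% had such a p. The groups overlapped in the stromal and in the macrophage sum. No marker of these lists passed adjustment (smallest edgeR adjusted p = 0.403 for stromal and 0.406 for macrophage markers). The part of these cell types in the values of Rec8 was not tested.

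Mitotic cohesin was set beside markers of dividing cells. The 9 mitotic cycle markers summed to 571 to 831 CPM in controls and 597 to 679 CPM with NAPQI, and their median log2 fold change was -0.13. Control replicate 2 was highest in this sum, as it was for Rad21, Smc1a and Smc3. The remaining lists overlapped between groups as well, with sums in controls and NAPQI of 1995 to 2466 and 1947 to 2221 CPM for 9 pregranulosa, 139 to 182 and 149 to 180 CPM for 6 endothelial, and 74.4 to 343 and 111 to 241 CPM for 5 surface epithelium markers. The 6 red blood cell markers summed to 26.8 to 197 CPM in controls and 18.2 to 62.9 CPM with NAPQI; all 4 tested were negative (median -1.12 on the log2 scale), 0 of them at an unadjusted p under 0.05, and Hba-a2 was at 0 in all libraries.

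Cohesin is loaded by NIPBL and MAU2, released by WAPL with PDS5, and locked by the acetyltransferases ESCO1 and ESCO2. Of 9 genes of loading, release and acetylation, 0 rose and 0 fell by edgeR's quasi-likelihood test, which called 0.0814% of all tested genes. An unadjusted p under 0.05 was reached by 0 of the 9, where 9.24% of all tested genes had such a p. The other 3 tests called 0. The median log2 fold change of the 9 was 0.03. The smallest p belonged to Esco2, which acetylates SMC3 in S phase, at 48.2 ± 6.82 and 53.6 ± 5.73 CPM (0.15 ± 0.12, edgeR adjusted p = 0.712). Next was the loader Nipbl, at 145 ± 13.6 and 156 ± 1.97 CPM (0.10 ± 0.09, edgeR adjusted p = 0.747).

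Shugoshins with the phosphatase PP2A protect REC8 at centromeres, and separase, held by securin, cuts the kleisin. Of 9 genes of protection and cleavage, 0 rose and 0 fell by edgeR's quasi-likelihood test, which called 0.0814% of all tested genes. An unadjusted p under 0.05 was reached by 0 of the 9, where 9.24% of all tested genes had such a p. The other 3 tests called 0. The median log2 fold change of the 9 was -0.04. Pttg1, which encodes securin, was at 23.0 ± 4.99 and 18.0 ± 2.30 CPM (-0.35 ± 0.18, edgeR adjusted p = 0.553). Ppp2r1a, the scaffold subunit of PP2A, was at 199 ± 17.3 and 177 ± 5.74 CPM (-0.16 ± 0.09, edgeR adjusted p = 0.597).

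The related condensin and SMC5/6 complexes had 0 of 14 genes called by edgeR's quasi-likelihood test, where 0.0814% of all tested genes were. The other 3 tests called 0, and the median log2 fold change of the 14 was -0.03. An unadjusted p under 0.05 was reached by 1 of 14, where 9.24% of all tested genes had such a p. That gene, Nsmce4a, a subunit of the SMC5/6 complex, stood at 78.4 ± 10.3 and 63.5 ± 5.63 CPM (-0.30 ± 0.11, edgeR adjusted p = 0.441). Nsmce3, of the same complex, stood at 50.3 ± 4.98 and 44.7 ± 0.634 CPM with no overlap between groups, as for 7.13% of tested genes (-0.17 ± 0.10, edgeR adjusted p = 0.627).

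The genes whose log2 CPM over the 6 libraries was most like that of Rec8, among 10647 others with a mean of at least 10 CPM, were Wdr90 (Pearson r 0.994), Robo2 (0.992), mt-Nd1 (0.992), Fam43a (0.992) and Oplah (0.991). In all 5 the NAPQI libraries lay below the controls without overlap, as in Rec8 and in 7.13% of tested genes. That order follows largely from their choice by likeness to Rec8 over the same libraries. For Rad21 they were Gk (Pearson r 0.982), Adam33 (0.975), Bccip (0.975), Rbm14 (0.975) and Rcbtb2 (0.974), and in all 5 the groups overlapped. These values are the highest of many over 6 libraries that share their scaling, and are a description only.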

How the data were processed

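Per the file headers, the authors deposited raw read counts and FPKM values side by side. The FPKM were checked to follow from the counts, the deposited length and the summed counts, and served only for levels between genes. Another deposited table gives the comparison made by the authors: signal columns with the authors' mean normalised counts, the authors' ratio of these means, its log2 value as deposited, and the authors' p-value columns. FastQC 0.11.8, HISAT2 2.0.5, HTSeq 0.9.1 and the build GRCm39 are named in the submitters' processing notes; strandedness is not given in the sources used here. An emptied line of the counts was not analysed here.

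Titles gave the groups. Counts were tested in R 4.3.3 with edgeR 4.0.16: filterByExpr with a minimum count of 10, TMM scaling, and the two-sided quasi-likelihood F-test of 3 against 3 libraries, Benjamini-Hochberg adjusted over 14736 genes, with a threshold of 0.05. The smallest two-sided p of a rank test of 3 against 3 is 0.1. Log2 CPM used a prior count of 0.5. Alternatives were other scalings and filters, DESeq2 1.42.0, limma-voom (limma 3.58.1), edgeR's exact test, a replicate block, a lowess length correction with a span of 0.3, and each library left out. The gene test and the length correction were tested on simulated data. Figures used Python 3.11.15 and matplotlib 3.10.9.

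The members and lists were chosen with earlier results of these data known. Named genes were the 9 subunits, of each other list the 2 genes with the smallest p, and the 5 genes most like Rec8 and Rad21. The setting beside germ cell markers was added after the data were seen. Promoters are from RefSeq on GRCm38.p6, matched by symbol.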

Additional observations from a re-analysis of the deposited data

How the results depend on the processing

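Under 16 alternatives for each of the 9 subunits, 0 of 144 values passed the threshold, and 133 kept their sign. Signs turned for Rad21l (-0.12 to 0.27 with each library left out in turn), Rad21 (-0.0937 to 0.0492), Stag1 (-0.0349 to 0.11, and -0.0174 with the length trend removed) and Smc1a (-0.045 to 0.0564, 0.0004 with upper quartile scaling and 0.0155 with library size alone). Rec8 ranged from -0.63 to -0.39, with adjusted p of 0.0957 to 0.9997 and an unadjusted p under 0.05 in all 16 alternatives. With libraries left out in turn, the group difference of the log2 ratio went from -0.68 to -0.31 for Rec8/Rad21, 0.11 to 0.29 for Smc1b/Smc1a, -0.08 to 0.38 for Rad21l/Rad21, -0.05 to 0.09 for Stag3/Stag1 and -0.08 to 0.01 for Stag3/Stag2. For the ratio of Rec8 to germ cell markers it went from -0.74 to -0.46. Genes called over all genes went from 12 to 48 without a low-count filter, 75 with DESeq2, 110 with edgeR's exact test and 1 with limma-voom, and to 1 to 58 with each library left out; the cause was not tested. With the replicate number as a block the count was 1. Of 3 correlations between same-numbered libraries 0 were over 0.1, and 1 of the 6 libraries correlated best with its own number. These values cannot show whether same-numbered libraries shared a litter or culture. No other scaling moved the median of all genes by over 0.1. Counting error was higher for Rec8 (counts of 235 to 407) and Rad21l (199 to 408) than for the other 7. For both genes it lay below the SD between libraries in either group.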
